A study of Arabidopsis thaliana with 12 samples.

Results

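WT seedlings at 29 °C were set against *vim1-3* seedlings at 23 °C, 2 of the 4 groups of an RNA-Seq series on growth in warmth, the long noncoding RNA *APOLO* and VIM1, a protein that binds methylated cytosines. The 6 libraries (3 per group, replicates A, B and C) out of 12 were taken by their labels alone, together with every gene counted in them: 25551 of the 37336 genes in the files had at least 1 read in these libraries. All were whole *Arabidopsis thaliana* seedlings. The warm group was wild-type Col-0, 4-day-old seedlings kept at 29 °C for 6 h, a duration that the sample labels do not give. The *vim1-3* group, by the study's methods also 4-day-old seedlings in the Col-0 background, carried a T-DNA insertion in *VIM1* and stayed at 23 °C. A single allele of a single gene was used. OE *APOLO-1*, a line that over-expresses *APOLO*, and WT, both at 23 °C, appear below only as values beside some genes. Temperature and genotype differed together between the groups compared, so their parts in any difference cannot be told apart.

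Plants respond to mild warmth with thermomorphogenesis: hypocotyls and petioles elongate, a growth response driven by the transcription factor PIF4 through auxin synthesis genes such as *YUC8*. Warmer conditions also raise chaperones, the proteins that keep others folded, under the control of heat shock transcription factors. VIM1 binds methylated cytosines and is needed, with its relatives, to maintain CG methylation of DNA. Many defence genes are known to be sensitive to temperature in Arabidopsis.

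The gene counts summed to between 12611895 and 22925019 reads per library, the lowest and the highest both in *vim1-3* (replicates B and A). Levels are given as CPM, counts scaled to a common library size after TMM scaling, which corrects for depth but not for gene length, so levels are compared between libraries and not between genes. Of the 20235 genes with enough counts to be tested, 6031 (29.8%) were called differentially expressed by edgeR's quasi-likelihood test at a Benjamini-Hochberg adjusted p below 0.01. In WT at 29 °C 2866 genes (14.2%) were higher and 3165 genes (15.6%) lower than in *vim1-3*. These percentages are the background against which the gene groups below are read. They cover tested genes only, and a gene could have enough counts to be tested through the group where it was high. In 11020 genes (54.5%) the 3 libraries of one group all lay above those of the other. The median log2 fold change (WT 29 °C over *vim1-3* 23 °C) over all genes tested was 0.00015. Most calls were moderate in size, with a median log2 fold change of 0.61 among the higher genes and a median decrease of 0.65 on the log2 scale among the lower ones. At least a 2-fold difference was seen in 645 higher and 887 lower genes, and at least an 8-fold difference in 43 higher and 149 lower genes. The first principal component of the 6 libraries held 76.6% of the variance and separated the groups. The count of calls depends on the libraries that share the estimate of spread, since a fit of all 12 libraries called 2816 genes. Leaving out *vim1-3* replicate C gave 4176 calls.

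**Figure D1:**
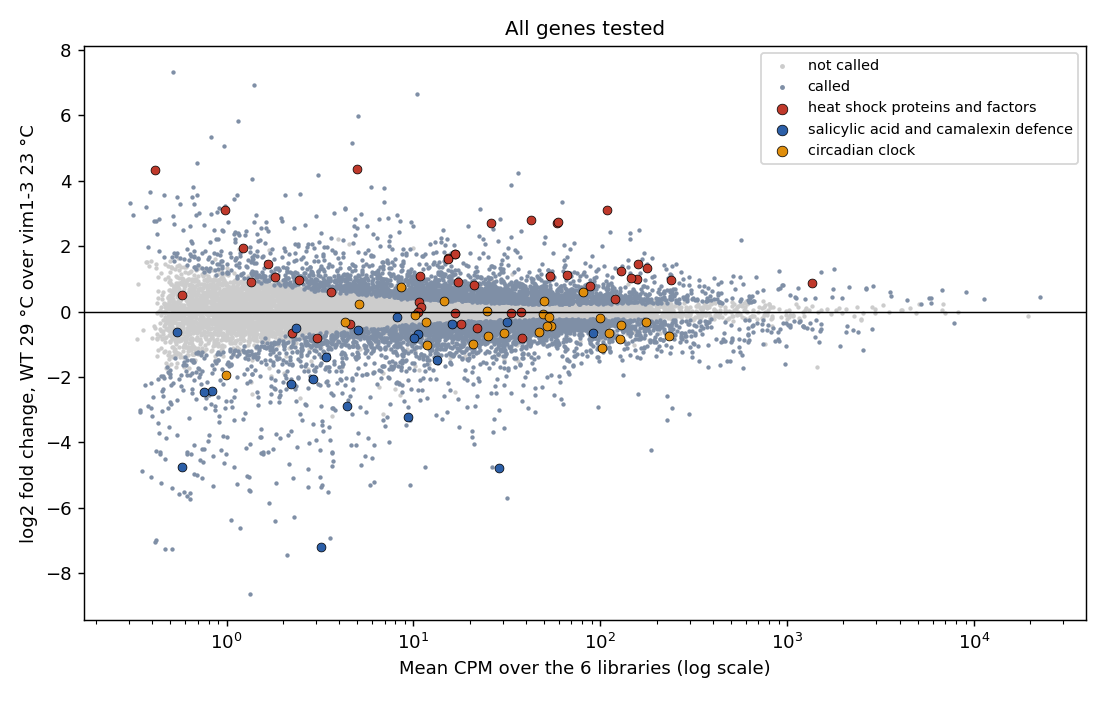
Each point is a gene tested, with its mean CPM over the 6 libraries on a log axis and its log2 fold change (WT 29 °C over *vim1-3* 23 °C) on the vertical axis. Blue-grey points are the 6031 called genes; heat shock genes lie mostly above 0, whereas defence and clock genes lie mostly below it.

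*VIM1* (AT1G57820; chromosome 1, 21413981 to 21418115), the mutated gene, was examined first. It stood at 8.86, 10.1 and 10.9 CPM in WT at 29 °C, against 0.213, 0.238 and 0.0422 CPM in *vim1-3*, which came from 5, 3 and 1 reads. The pooled level was 66.8 times higher in WT at 29 °C (95% exact interval 34.9 to 147, counting error only). All *vim1-3* libraries were thus far below all WT libraries, as their labels require. *VIM1* averaged 11 ± 0.723 CPM in OE *APOLO-1* and 5.92 ± 1.69 CPM in WT at 23 °C (SD, n = 3 each). *APOLO* (AT2G34655) had too few reads to be tested, with 0.117 to 0.443 CPM in WT at 29 °C and 0.253 to 0.795 CPM in *vim1-3*. It reached 57.4 CPM in the library labelled WT 23 °C replicate A, against 0.117 and 0.12 CPM in replicates B and C, so that this library stood apart from its group in the gene that OE *APOLO-1* over-expresses. Whether it holds RNA of another sample was not tested. It enters the shared scaling and the fit of all 12 libraries. With scaling factors from the 6 compared libraries alone, without it, 6046 genes were called.

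Among the relatives of *VIM1*, *VIM6* (AT4G08590) was higher in WT at 29 °C and *VIM4* (AT1G66040) lower. *VIM6* had 4.84, 6.31 and 6.71 CPM in WT at 29 °C, against 4.09, 3.1 and 3.8 CPM in *vim1-3* (log2 fold change 0.68, standard error 0.17, adjusted p = 0.00546). *VIM4* stood at 0.233, 0.277 and 0.227 CPM in WT at 29 °C, against 1.06, 1.19 and 0.676 CPM in *vim1-3* (log2 fold change −1.93, standard error 0.40, adjusted p = 0.00175). Both calls were close to the threshold, and *VIM6* lost its call without WT 29 °C replicate C or without any 1 of the *vim1-3* libraries, and *VIM4* without *vim1-3* replicate A. *VIM2* (log2 fold change −1.11, adjusted p = 0.0187) and *VIM3* (−0.23, adjusted p = 0.27) did not pass. Of the 75-base exon stretches of *VIM4*, 64.8% also occur elsewhere in the genome, as do 56.6% of those of *VIM2*, so reads of this pair cannot be fully separated. Of the 34 tested genes of the DNA methylation machinery, which include *VIM1* to *VIM4* and *VIM6*, 5 were higher (14.7%, near the background of 14.2%) and 1 was lower in WT at 29 °C. The other 3 higher genes were *CMT3*, a methyltransferase for CHG sites (log2 fold change 0.65, adjusted p = 2.67e-04), *AGO4*, the effector of RNA-directed methylation (0.50, adjusted p = 3.31e-04), and the remodeller *DDM1* (0.76, adjusted p = 0.00134). Without WT 29 °C replicate B the list had 9 higher genes. *MET1*, the methyltransferase that maintains CG methylation, had 17.9, 19.8 and 20.2 CPM in WT at 29 °C, against 18, 17.7 and 16.8 CPM in *vim1-3*, and did not pass (adjusted p = 0.184). *LHP1*, the Polycomb reader that the study pairs with VIM1, had a log2 fold change of 0.08 (adjusted p = 0.516), and the reference gene *PP2AA3* one of 0.02 (adjusted p = 0.812).

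Named genes were ranked by the difference in log2(mean CPM + 1) among called genes that averaged at least 10 CPM in a group, and the one furthest higher in WT at 29 °C was *MRD1* (AT1G53480; chromosome 1, 19963047 to 19964712), which is known by its response in the methionine over-accumulating mutant *mto1*. It stood at 21.3, 20.3 and 20.4 CPM in WT at 29 °C, against 0.213, 0.159 and 0.211 CPM in *vim1-3*. The pooled level was 103 times higher in WT at 29 °C (95% exact interval 58.6 to 199, counting error only). *MRD1* had 0.635, 0.88 and 0.672 CPM in OE *APOLO-1* and 20.9, 15.9 and 20.3 CPM in WT at 23 °C, so both WT groups were high and both other genotypes were near 0. Of its exon bases, 89.8% overlap other annotated genes, and the counts cannot be assigned to a strand because the strand setting of the counting is not stated.

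The next genes by size of difference were of several kinds. AT5G12110, an elongation factor 1-beta, had 66.6, 71.5 and 68.3 CPM in WT at 29 °C, against 2.81, 4.77 and 3.67 CPM in *vim1-3* (log2 fold change 4.25, standard error 0.12, adjusted p = 1.80e-10), and 65.4% of its exon bases overlap the neighbour AT5G12120. *ADS1* (AT1G06080), a delta-9 fatty acid desaturase, stood at 64.5, 58.9 and 63.4 CPM in WT at 29 °C, against 4.81, 3.73 and 4.01 CPM in *vim1-3* (log2 fold change 3.87, standard error 0.10, adjusted p = 4.68e-11). AT5G02540, a Rossmann-fold oxidoreductase-like protein, had 118, 83.1 and 141 CPM in WT at 29 °C, against 11.9, 11.7 and 10.3 CPM in *vim1-3* (log2 fold change 3.34, standard error 0.23, adjusted p = 1.27e-04). In all of these the groups lay far apart, whereas WT at 23 °C stayed low for AT5G12110 (5.42, 8.66 and 4.92 CPM) and AT5G02540 (12.2, 18.1 and 15.4 CPM). *ADS1* was spread in WT at 23 °C, with 7.19, 30.2 and 16.6 CPM. In the wider set of 14 tested desaturase genes 3 were higher (21.4%) and 2 lower (14.3%), against 14.2% and 15.6% of all genes tested. *ADS4* (log2 fold change 2.66) and *FAD2*, the extraplastidic oleate desaturase (0.52), were higher with *ADS1*. The plastid omega-3 desaturases *FAD7* (−0.47) and *FAD8* (−0.61) were lower in WT at 29 °C. A fit of all 12 libraries did not call *FAD7* (adjusted p = 0.0132), and 13.3% of the exon stretches of *FAD8* occur elsewhere.

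**Figure D2:**
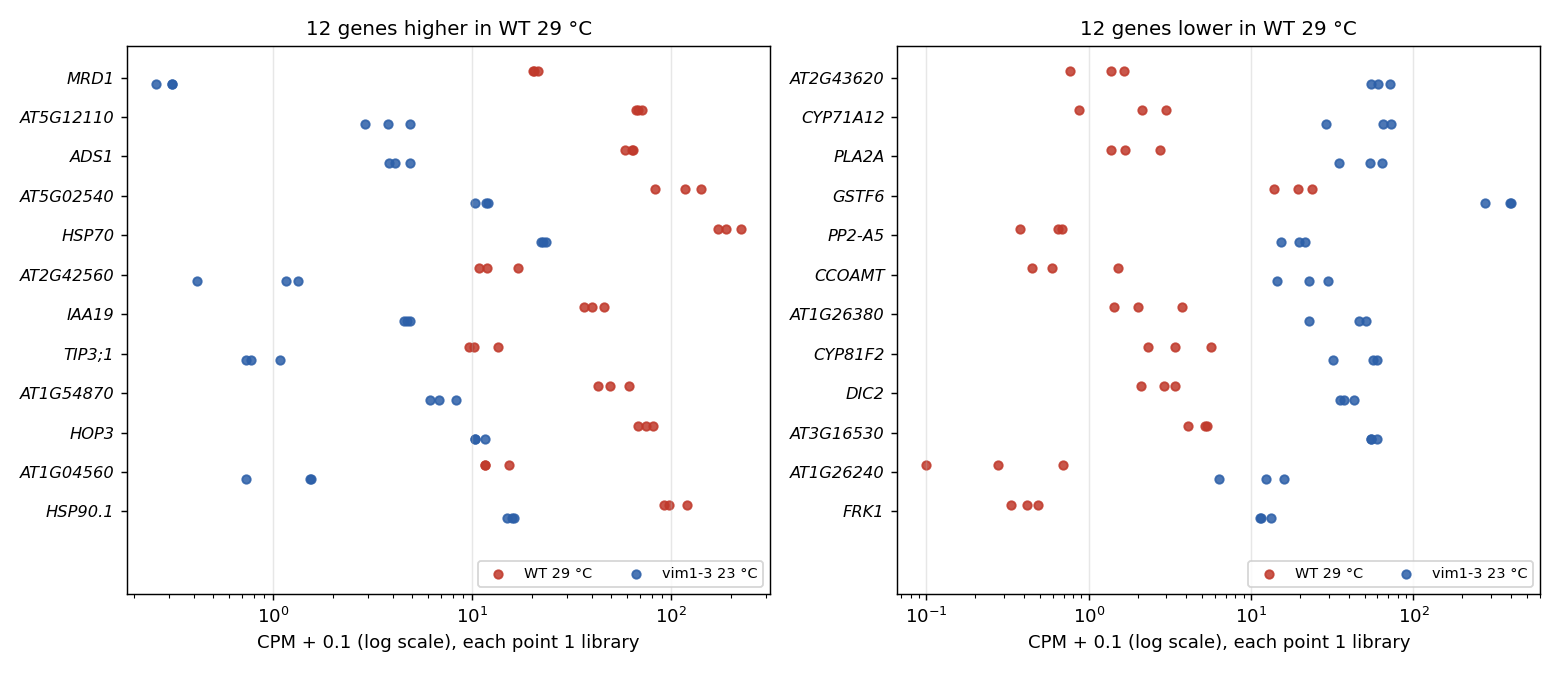
Levels of the 12 genes furthest higher (left) and the 12 furthest lower (right) in WT at 29 °C, with each library as a point at its CPM plus 0.1 on a log axis, WT 29 °C in red above *vim1-3* 23 °C in blue. The groups are separate in every gene shown, and *AT1G26240* holds a WT 29 °C library with no read.

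Genes of protein folding stood out among the higher genes. Of 45 tested heat shock proteins and factors, 30 were higher (66.7%) and 3 lower, with a median log2 fold change of 0.98. *HSP70* (AT3G12580; chromosome 3, 3991117 to 3993886), a stress-induced cytosolic chaperone, had 189, 225 and 172 CPM in WT at 29 °C, against 23.6, 22.2 and 22.6 CPM in *vim1-3* (log2 fold change 3.09, standard error 0.10, adjusted p = 2.61e-10). *HSP90.1* (AT5G52640), the stress-induced member of the cytosolic HSP90 family, stood at 98.3, 120 and 92.7 CPM in WT at 29 °C, against 15, 16.2 and 15.8 CPM in *vim1-3* (log2 fold change 2.73, standard error 0.10, adjusted p = 7.99e-10). *HOP3* (AT4G12400), a co-chaperone that links HSP70 to HSP90, had 74.5, 81 and 68 CPM in WT at 29 °C, against 10.3, 11.5 and 10.3 CPM in *vim1-3* (log2 fold change 2.81, standard error 0.09, adjusted p = 1.93e-10). WT 29 °C replicate B was the highest of its group for all of these, and the *vim1-3* libraries were close together. The WT libraries at 23 °C were wide, with 24.5, 115 and 127 CPM for *HSP70* and 17.5, 84.3 and 100 CPM for *HSP90.1*, so replicates B and C of that group were well above *vim1-3* at the same temperature.

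By class, all 7 tested *HSP90* genes were higher in WT at 29 °C, in the cytosol, plastid (*HSP90.5*, log2 fold change 1.44), mitochondrion (*HSP90.6*, 1.07) and endoplasmic reticulum (*SHD*, 0.95). The genes *HSP90.2* to *HSP90.4* share 10.9% to 17.6% of their exon stretches with other places in the genome and are uncertain as single genes. In the HSP70 class 6 of 9 were higher, among them *BIP1* (log2 fold change 1.34) and *BIP2* (1.23) of the endoplasmic reticulum, for which 14.4% and 15.1% of the stretches occur elsewhere, and the abundant *HSC70-1* (0.86). Of 12 small heat shock proteins, which hold unfolding proteins in a soluble state, 10 were tested. Among those, 8 were higher and none lower. Members with few reads in *vim1-3*, such as *HSP17.4*, could enter the test through WT at 29 °C alone, which ties their direction to their entry. *HSP17.4* (AT3G46230) stood at 8.63, 10.7 and 9.26 CPM in WT at 29 °C, against 0.298, 0.556 and 0.549 CPM in *vim1-3* (log2 fold change 4.37, standard error 0.22, adjusted p = 1.03e-08). It had 0.815, 16.7 and 20.1 CPM in WT at 23 °C, and the fit of all 12 libraries did not call it (adjusted p = 0.0176). Of its exon bases, 70.9% overlap other annotated genes. In that fit 4 of the small heat shock proteins were called. The disaggregase *HSP101* (1.76), the immunophilin-type co-chaperones *ROF2* (2.70) and *ROF1* (1.13), the heat-tolerance gene *HSA32* (1.77) and the co-activator *MBF1C* (2.70) were also higher in WT at 29 °C. Exons of *MBF1C* (25.9%) and *HSFB2B* (22.4%) partly overlap other genes.

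The heat shock transcription factors did not follow the chaperones as a group: 2 of 10 were higher, 2 lower and their median log2 fold change was −0.035. *HSFB2B* (AT4G11660), a repressor-type factor, had 15.9, 14.7 and 14.1 CPM in WT at 29 °C, against 7.24, 5.56 and 7.73 CPM in *vim1-3* (log2 fold change 1.09, adjusted p = 1.26e-05). *HSFA2*, the factor that prolongs heat responses, was higher at low levels (1.06, adjusted p = 0.00323) and lost its call without any 1 of the *vim1-3* libraries. *HSFA7A* (AT3G51910) was lower, with 28.7, 30.3 and 24 CPM in WT at 29 °C, against 51.5, 46 and 48.4 CPM in *vim1-3* (log2 fold change −0.82, adjusted p = 8.37e-06). *HSFA1B* had a log2 fold change of −0.38 (adjusted p = 0.00669) and lost its call in 4 of the 6 fits without a single library. In the fit of all 12 libraries *HSFB2B* alone of these factors was called, with an adjusted p of 0.238 for *HSFA2* and 0.0122 for *HSFA7A*.

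Heat shock factors bind inverted GAA repeats, and the windows of 200 bases before the annotated start of each gene were searched for the core GAANNTTC, which reads alike on both strands. It was found in 5 of the 45 tested heat genes (11.1%), namely *HSP17.4*, AT1G53540, *HSFA2*, *HSFA7A* and *DREB2A*. The windows of AT1G53540 and *HSFA2* touch an annotated exon. The share was 7.34% of all genes tested and 7.59% of 27443 protein-coding genes. The core was in 6.81% of the higher and 8.5% of the lower genes, and in 5 of the 20 tested defence genes (25%). Among the heat genes, 2 of 10 small heat shock proteins held it, against 0 of 7 *HSP90* genes and 0 of 9 in the HSP70 class. Of the 5 carriers, *HSFA7A* and *DREB2A* were called lower in the warm group. The fit of all 12 libraries did not call *DREB2A* (adjusted p = 0.0357). The window of *HSP17.4*, shown because it holds a pair of copies before a chaperone gene, lies at chr3:16984868-16985067 (TAIR10.1, minus strand) and carries the core in capitals, starting 99 and 18 bases before the gene.
HSP17.4: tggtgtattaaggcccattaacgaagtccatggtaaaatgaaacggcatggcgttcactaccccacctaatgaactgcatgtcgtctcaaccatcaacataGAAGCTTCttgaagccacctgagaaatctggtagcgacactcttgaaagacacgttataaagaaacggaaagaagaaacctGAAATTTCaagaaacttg

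Among the genes around PIF4, more were higher than lower in WT at 29 °C. *PIF4* (AT2G43010; chromosome 2, 17886101 to 17889087) stood at 119, 125 and 123 CPM in WT at 29 °C, against 63.6, 64.6 and 62.4 CPM in *vim1-3* (log2 fold change 0.94, standard error 0.06, adjusted p = 9.37e-08), close to 2-fold with little spread in either group. Of the 37 tested genes of warmth and light signalling, 18 were higher (48.6%) and 3 lower, with a median log2 fold change of 0.23. Higher members with the smallest adjusted p, after *PIF4*, were *GAI*, a DELLA repressor of growth (1.14), *HAT2*, a homeodomain factor of shade responses (1.05), and the red-light receptor gene *PHYA* (0.91). The lower members were *HYH*, a light-signalling bZIP factor (−1.27), *PIF7* (−0.79) and the ubiquitin ligase gene *COP1* (−0.53). *PIF7*, a relative of *PIF4* that acts in shade and warmth, thus went the opposite way, with 14.6, 12.1 and 12.8 CPM in WT at 29 °C, against 22.1, 23.1 and 23 CPM in *vim1-3*, and 16.3% of its exon bases overlap another gene.

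The auxin synthesis genes split. *YUC8* (AT4G28720), a flavin monooxygenase of the last step of auxin synthesis, had 26.4, 24.8 and 23.4 CPM in WT at 29 °C, against 5.62, 5.56 and 5.03 CPM in *vim1-3* (log2 fold change 2.20, standard error 0.10, adjusted p = 3.93e-09). *YUC2* (AT4G13260), the locus that the study follows, had 4.37, 3.38 and 4.17 CPM in WT at 29 °C, against 1.62, 1.43 and 1.94 CPM in *vim1-3* (log2 fold change 1.23, standard error 0.20, adjusted p = 2.45e-04). The groups did not overlap for either gene, and the WT libraries at 23 °C held 7, 12.7 and 10.3 CPM of *YUC8* and 2.78, 3.04 and 1.68 CPM of *YUC2*. The fit of all 12 libraries did not call *YUC2* (adjusted p = 0.0117). *TAA1*, the aminotransferase of the step before, was lower, with 5.48, 8.36 and 5.85 CPM in WT at 29 °C, against 17.5, 15.2 and 18.1 CPM in *vim1-3* (log2 fold change −1.38, standard error 0.14, adjusted p = 7.75e-06). *YUC5* was lower as well (−1.6). In all, 3 of 8 tested synthesis genes were higher and 2 lower. The third higher gene was *YUC3* (0.65, adjusted p = 0.00685), which lost its call in 5 of the 6 fits without a single library.

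In the auxin-responsive families more genes were higher than lower in WT at 29 °C. In the Aux/IAA family, whose proteins repress auxin responses and are themselves induced by auxin, 12 of 26 tested genes were higher (46.2%) and 3 lower. *IAA19* (AT3G15540; chromosome 3, 5264001 to 5265695) was among the 12 furthest higher of all genes, with 40.1, 46.1 and 36.5 CPM in WT at 29 °C, against 4.6, 4.45 and 4.81 CPM in *vim1-3* (log2 fold change 3.14, standard error 0.11, adjusted p = 3.73e-10). *IAA2* (1.34) and *IAA6* were higher too, *IAA6* with 5.95, 6.36 and 5.22 CPM in WT at 29 °C, against 0.383, 0.238 and 0.296 CPM in *vim1-3*. Among the SAUR genes, small auxin-induced promoters of cell expansion, 27 of 63 were higher (42.9%) and 3 lower, with a median log2 fold change of 0.60. *SAUR22* had 14.3, 14.2 and 14.7 CPM in WT at 29 °C, against 2.26, 1.43 and 1.73 CPM in *vim1-3* (log2 fold change 2.95, standard error 0.15, adjusted p = 1.03e-08), and *SAUR50* (2.22) and *SAUR66* (2.04) followed. In the GH3 family, most of whose members conjugate hormones to amino acids, 6 of 9 were higher, among them *GH3.3* (1.78), *WES1* (0.81) and *DFL1* (0.95), which all act on auxin. The exception was *PBS3*, a GH3 protein of salicylic acid synthesis, with 0, 0 and 0.0907 CPM in WT at 29 °C, against 0.894, 1.19 and 1.27 CPM in *vim1-3*.

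Cell wall genes differed by family. Of 24 tested expansins, which loosen walls, 12 were higher (50%) and 1 lower, with a median log2 fold change of 0.63. *EXPA8* had 241, 246 and 220 CPM in WT at 29 °C, against 41.6, 62.2 and 50.2 CPM in *vim1-3* (log2 fold change 2.21, standard error 0.13, adjusted p = 8.95e-07), and *EXPA6* (1.28) and *EXPA5* (1.41) were higher as well. The fit of all 12 libraries called 6 expansins higher. Of 30 tested XTH genes, which cut and rejoin xyloglucan, 10 were higher and 6 lower. *TCH4*, the touch-induced member, was lower, with 169, 173 and 152 CPM in WT at 29 °C, against 391, 387 and 377 CPM in *vim1-3* (log2 fold change −1.23, standard error 0.07, adjusted p = 3.53e-08), whereas *XTH7* (0.86) and *XTH8* (1.47) were higher. Without WT 29 °C replicate A the number of higher XTH genes was 6.

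The G-box CACGTG, a site bound by PIF and bZIP factors, was searched in the same windows and reads alike on both strands. Of the 12 furthest higher genes 3 held it, *IAA19*, AT1G54870 and AT1G04560, against 6.58% of all genes tested. It was found in 8.92% of the higher genes, 6.28% of the lower genes and 10.8% of the tested genes around PIF4. Of the other lists, it was in 15.4% of the tested Aux/IAA genes and 13.3% of the heat genes. By contrast, 1.59% of the SAUR genes and 0% of the expansins held it. The windows of *IAA19* (chr3:5263801-5264000, plus strand) and AT1G04560 (chr1:1244747-1244946, plus strand) are shown as the auxin-responsive and the seed-type example, with the G-box in capitals. It starts 70 bases before *IAA19*, and 106 and 54 bases before AT1G04560.
IAA19: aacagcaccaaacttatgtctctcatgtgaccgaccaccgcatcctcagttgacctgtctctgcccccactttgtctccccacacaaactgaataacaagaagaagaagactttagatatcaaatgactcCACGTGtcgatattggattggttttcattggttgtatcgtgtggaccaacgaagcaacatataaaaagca
AT1G04560: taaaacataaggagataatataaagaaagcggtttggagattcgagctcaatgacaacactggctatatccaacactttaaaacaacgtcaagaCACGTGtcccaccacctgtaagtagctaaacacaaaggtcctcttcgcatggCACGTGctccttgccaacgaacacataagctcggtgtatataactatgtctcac

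Another group of higher genes belongs to seed maturation and dehydration. Among the 12 furthest higher genes were AT2G42560, a late embryogenesis abundant (LEA) protein, *TIP3;1* (AT1G73190), an aquaporin of seed storage vacuoles, AT1G04560, an AWPM-19-like protein, and AT1G54870, a Rossmann-fold protein. AT2G42560 had 10.7, 16.9 and 11.8 CPM in WT at 29 °C, against 1.24, 0.318 and 1.06 CPM in *vim1-3* (log2 fold change 3.77, standard error 0.30, adjusted p = 7.63e-06). *TIP3;1* had 10.2, 13.5 and 9.53 CPM in WT at 29 °C, against 0.98, 0.636 and 0.676 CPM in *vim1-3* (log2 fold change 3.81, standard error 0.21, adjusted p = 2.76e-08), with 24.6% of its exon bases shared with a neighbour. AT1G54870 had 42.7, 61.5 and 49.5 CPM in WT at 29 °C, against 6.77, 6.04 and 8.24 CPM in *vim1-3* (log2 fold change 2.85, standard error 0.15, adjusted p = 4.40e-07). In each of these WT 29 °C replicate B was the highest library, and the other groups were low. AT1G54870 had 1.62, 1.04 and 3.0 CPM in OE *APOLO-1* and 5.03, 0.176 and 3.36 CPM in WT at 23 °C.

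The seed maturation markers moved with these genes. Of 13 markers 6 had enough counts to be tested, and 4 of those were higher: the oleosin *OLEO2* (log2 fold change 2.85), the LEA gene *EM6* (2.38), the seed peroxiredoxin *PER1* (2.31) and the regulator *ABI3* (0.78). *PER1* had 34.1, 46.1 and 31.8 CPM in WT at 29 °C, against 9.16, 5.4 and 7.35 CPM in *vim1-3*. The cruciferin gene *CRA1*, for an abundant seed storage protein, had 8.69, 9.96 and 2.86 CPM in WT at 29 °C, against 1.02, 3.66 and 1.06 CPM in *vim1-3*, with overlapping groups (adjusted p = 0.0952). The 13 markers summed to 62.2 to 94.2 CPM in WT at 29 °C, against 16.6 to 18.8 CPM in *vim1-3*, and none was without a read in all 6 libraries. The fit of all 12 libraries called 1 of the markers higher. The part of this shift in the results on these genes was not tested, and in whole seedlings fewer cells of a type and less RNA per cell cannot be told apart. The ABA-responsive *RD29B*, a gene of dehydration and cold, was also higher, with 69.9, 109 and 81.2 CPM in WT at 29 °C, against 24.6, 23.2 and 27.6 CPM in *vim1-3* (log2 fold change 1.78, adjusted p = 2.16e-04).

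Root markers summed to 386 to 514 CPM in WT at 29 °C and 301 to 382 CPM in *vim1-3*, and 1 of 10 was called, the phosphate transporter gene *PHT1;1* (log2 fold change 0.63), of whose exon stretches 36.5% occur elsewhere and which the fit of all 12 libraries did not call (adjusted p = 0.571). Of 9 tested shoot markers 2 were lower (22.2%). Shoot markers summed to 35358 to 38919 CPM in WT at 29 °C and 39532 to 42728 CPM in *vim1-3*. Neither sum overlapped between the groups, with the root sum higher and the shoot sum lower in WT at 29 °C. Of all genes tested, 54.5% did not overlap either. The wider list of antenna, photosystem and Rubisco genes, which holds several of the shoot markers, went the other way. It summed to 197801 to 223491 CPM in WT at 29 °C and 177068 to 193755 CPM in *vim1-3*. Whether the shares of root and shoot differed was not tested. Both groups thus held root and shoot tissue, as the label of whole seedlings requires.

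**Figure D3:**
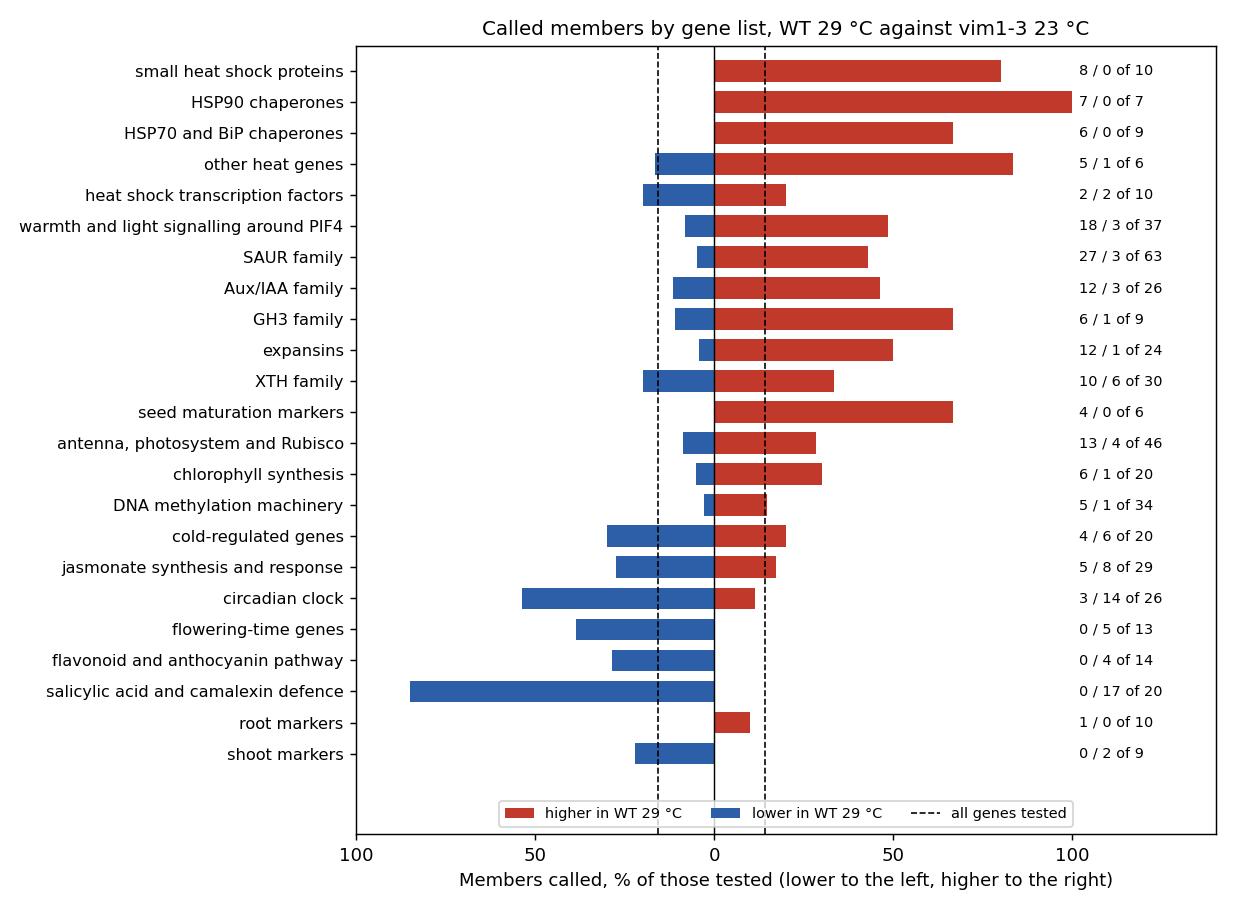
For each gene list, bars to the right give the percent of tested members higher in WT at 29 °C and bars to the left the percent lower, and the figures at the right give the counts higher / lower of those tested. Dashed lines mark the shares over all genes tested, 14.2% and 15.6%; chaperones and growth families exceed the right line, and the defence and clock lists exceed the left one.

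By the same ranking the gene furthest lower in WT at 29 °C was AT2G43620, a chitinase-family protein, with 1.28, 0.664 and 1.54 CPM in WT at 29 °C, against 71.4, 54.9 and 60.6 CPM in *vim1-3* (log2 fold change −5.71, standard error 0.19, adjusted p = 8.92e-09). *FRK1* (AT2G19190), a receptor kinase gene used as a marker of responses to bacterial flagellin, had 0.233, 0.387 and 0.318 CPM in WT at 29 °C, against 13.2, 11.4 and 11.3 CPM in *vim1-3* (log2 fold change −5.23, standard error 0.20, adjusted p = 1.09e-09). *PP2-A5* (AT1G65390), a phloem lectin-type protein, had 0.583, 0.277 and 0.544 CPM in WT at 29 °C, against 19.5, 15.2 and 21.4 CPM in *vim1-3* (log2 fold change −5.30, standard error 0.22, adjusted p = 1.87e-09). All *vim1-3* libraries lay more than an order of magnitude above the WT 29 °C libraries. In WT at 23 °C these genes were also present, with 31.1, 168 and 104 CPM of AT2G43620 and 6.18, 24.5 and 14.8 CPM of *FRK1*, whereas OE *APOLO-1* was low for both (0.564, 0.621 and 0.362 CPM, and 0.987, 0.88 and 0.93 CPM).

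*DIC2* (AT4G24570), a mitochondrial dicarboxylate carrier, had 2.8, 3.32 and 2.0 CPM in WT at 29 °C, against 37.3, 35.4 and 42.9 CPM in *vim1-3* (log2 fold change −3.85, standard error 0.14, adjusted p = 1.12e-09). The legume lectin gene AT3G16530 had 5.07, 3.98 and 5.22 CPM in WT at 29 °C, against 59.5, 54.3 and 54.9 CPM in *vim1-3* (log2 fold change −3.56, standard error 0.10, adjusted p = 9.22e-11). The glutathione transferase gene *GSTF6* (AT1G02930) had 19.3, 13.7 and 23.5 CPM in WT at 29 °C, against 400, 393 and 276 CPM in *vim1-3* (log2 fold change −4.24, standard error 0.27, adjusted p = 1.52e-04). These genes kept their calls without any single library, and WT at 23 °C held much more of 2 of them, with 218, 1059 and 988 CPM of AT3G16530 and 831, 3038 and 2623 CPM of *GSTF6*. *PLA2A*, a lipid acyl hydrolase of the patatin type, was also lower in WT at 29 °C, with 1.57, 1.27 and 2.63 CPM against 54, 63.5 and 34.7 CPM in *vim1-3* (log2 fold change −4.74, standard error 0.38, adjusted p = 4.34e-04).

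A set of lower genes varied inside *vim1-3*, where replicate C was the lowest library. *CYP71A12* (AT2G30750), a cytochrome P450 of indolic defence compounds, had 2.04, 0.775 and 2.9 CPM in WT at 29 °C, against 64.5, 72.1 and 29 CPM in *vim1-3* (log2 fold change −4.80, standard error 0.63, adjusted p = 0.0051). *CYP81F2*, a P450 of indole glucosinolate modification, had 3.32, 2.21 and 5.58 CPM in WT at 29 °C, against 59.8, 56.1 and 31.9 CPM in *vim1-3* (log2 fold change −3.69, adjusted p = 0.00333). The same shape was seen in AT1G26380, a berberine-bridge-type oxidase, in the methyltransferase gene *CCOAMT* and in the extensin-like AT1G26240, which had 0.175, 0 and 0.59 CPM in WT at 29 °C, against 12.2, 15.9 and 6.25 CPM in *vim1-3*. For AT1G26240 the pooled level was 38.0 times higher in *vim1-3* (95% exact interval 23.2 to 67, counting error only), and 22.8% of its exon stretches occur elsewhere. These 5 genes lost their calls when some single libraries were left out: *CYP71A12* without any 1 except *vim1-3* replicate C (adjusted p of 0.0119 to 0.0291), and *CCOAMT* without WT 29 °C replicate B (0.0189). *CYP81F2* lost its call without WT 29 °C replicate A or B, AT1G26380 without any WT 29 °C library or without *vim1-3* replicate A, and AT1G26240 without WT 29 °C replicate A or B or *vim1-3* replicate A. All 5 stood higher in each WT library at 23 °C than in any *vim1-3* library, *CYP71A12* with 128, 654 and 761 CPM.

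In the list of salicylic acid and camalexin defence 20 of 25 genes had enough counts to be tested. Of these, 17 were lower (85%) and none was higher, with a median log2 fold change of −1.45. No tested member had a positive fold change. Members with hardly a read in WT at 29 °C, such as *PBS3*, could enter the test through *vim1-3* alone, which ties their direction to their entry. *CBP60g*, a calmodulin-binding activator of salicylic acid synthesis, had 2.22, 1.83 and 1.45 CPM in WT at 29 °C, against 16.8, 20.1 and 14 CPM in *vim1-3* (log2 fold change −3.21, standard error 0.18, adjusted p = 2.83e-08). The transcription factor gene *WRKY53* stood at 1.17, 1.22 and 0.817 CPM in WT at 29 °C, against 8.01, 7.63 and 7.64 CPM in *vim1-3* (log2 fold change −2.88, standard error 0.18, adjusted p = 7.65e-08), with 20.5% of its exon bases overlapping another gene. *WRKY70* (−1.50) and *FMO1*, which makes the signal of systemic resistance (−2.21), were lower too. The groups were separate in each of these genes, and OE *APOLO-1* was low for *WRKY53* (1.41, 0.983 and 1.4 CPM). The whole list summed to 153 to 162 CPM in WT at 29 °C and 288 to 374 CPM in *vim1-3*. It summed to 222 to 244 CPM in OE *APOLO-1* and 470 to 2354 CPM in WT at 23 °C. By this sum *vim1-3* thus lay below every WT library at its own temperature. Without single libraries 13 to 16 of the 20 were called lower, and in the fit of all 12 libraries 10 were.

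The W-box core TTGAC, or GTCAA on the other strand, to which WRKY factors bind, was searched after the values had been seen. It occurred in the 200-base windows of 11 of the 12 furthest lower genes, against 6 of the 12 furthest higher genes and 39.3% of all genes tested. Over all calls it was in 44.5% of the lower and 37% of the higher genes, and in 12 of the 20 tested defence genes (60%). A match is a description of the letters and does not show binding. The windows of 4 of the furthest lower genes are shown because they hold several copies, in capitals: AT2G43620 (chr2:18095094-18095293, minus strand), *PP2-A5* (chr1:24292172-24292371, plus strand), AT1G26380 (chr1:9128569-9128768, minus strand) and *FRK1* (chr2:8329945-8330144, minus strand). AT2G43620 and *FRK1* hold 3 copies each, *PP2-A5* holds 2 and AT1G26380 holds 4.
AT2G43620: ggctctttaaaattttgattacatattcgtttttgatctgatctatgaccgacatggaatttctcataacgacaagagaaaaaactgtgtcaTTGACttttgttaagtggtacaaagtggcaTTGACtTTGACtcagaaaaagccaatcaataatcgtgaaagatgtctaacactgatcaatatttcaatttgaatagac
PP2-A5: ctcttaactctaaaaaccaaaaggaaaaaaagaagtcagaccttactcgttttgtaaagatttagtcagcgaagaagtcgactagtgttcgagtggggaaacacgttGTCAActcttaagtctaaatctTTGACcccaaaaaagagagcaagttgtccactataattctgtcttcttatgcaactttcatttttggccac
AT1G26380: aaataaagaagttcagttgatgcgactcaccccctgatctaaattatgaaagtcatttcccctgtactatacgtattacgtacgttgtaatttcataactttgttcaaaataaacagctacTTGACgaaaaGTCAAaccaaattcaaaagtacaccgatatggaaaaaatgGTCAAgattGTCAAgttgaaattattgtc
FRK1: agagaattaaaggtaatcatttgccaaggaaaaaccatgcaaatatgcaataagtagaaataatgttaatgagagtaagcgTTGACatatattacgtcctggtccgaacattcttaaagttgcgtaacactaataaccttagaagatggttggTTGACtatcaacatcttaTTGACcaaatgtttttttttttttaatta

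Clock genes were shifted downward in WT at 29 °C: 14 of 26 were lower (53.8%) and 3 higher, with a median log2 fold change of −0.37. *PRR5*, an evening-phased clock gene, had 60.9, 68.4 and 64.5 CPM in WT at 29 °C, against 133, 152 and 135 CPM in *vim1-3* (log2 fold change −1.11, standard error 0.07, adjusted p = 1.20e-07). *TOC1* had 86.6, 93.5 and 93.8 CPM in WT at 29 °C, against 165, 161 and 161 CPM in *vim1-3* (log2 fold change −0.83, standard error 0.06, adjusted p = 3.81e-07). *PRR7* (−0.75) and *RVE2* (−0.99) were lower as well, and so was the morning-phased *LHY* at low levels (−1.94), while *CHE* (0.59), *LNK3* (0.76) and *LNK1* (0.32) were higher. OE *APOLO-1* lay between the groups, with 104, 101 and 97.5 CPM of *PRR5*, and WT at 23 °C held 104, 63.5 and 89.5 CPM. Clock genes change with the time of day, and the hour of harvest of each group is not given in the sources used here. In the fit of all 12 libraries 8 clock genes were called lower. That fit did not call *RVE2* (adjusted p = 0.0144), *LNK3* (0.0199) or *LNK1* (0.0164). *LNK1* also lost its call without WT 29 °C replicate A, or without *vim1-3* replicate A or C. Of 13 tested flowering-time genes 5 were lower and none higher, among them the floral integrator *SOC1* with 3.21, 2.1 and 3.63 CPM in WT at 29 °C, against 13.2, 14.8 and 15.2 CPM in *vim1-3* (log2 fold change −2.26, standard error 0.16, adjusted p = 2.35e-07). The floral repressor genes *MAF1* (−1.11) and *TEM2* (−0.88) were lower too.

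**Figure D4:**
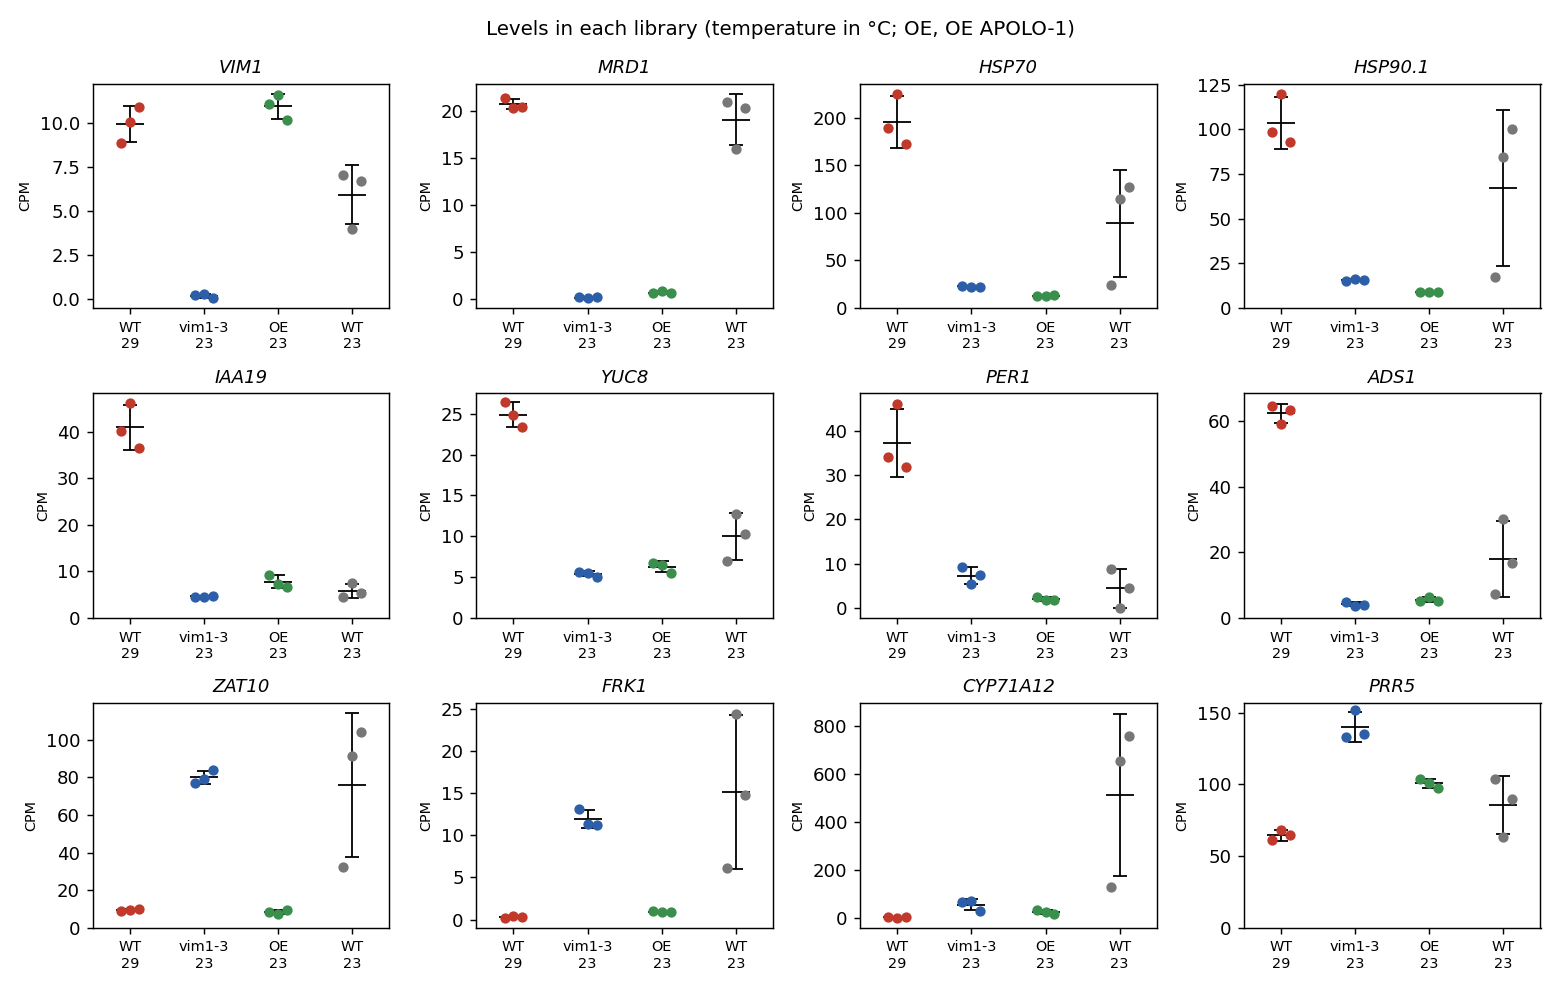
CPM of 12 genes in each library of WT at 29 °C, *vim1-3*, OE *APOLO-1* (OE) and WT at 23 °C, with bars for the mean and SD (n = 3). *MRD1* is high in both WT groups, *VIM1* is near 0 only in *vim1-3*, and for *HSP70*, *HSP90.1*, *ZAT10* and *CYP71A12* the WT libraries at 23 °C are spread widely.

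Cold-regulated genes split, with 4 of 20 higher and 6 lower. *ZAT10* (AT1G27730), a zinc-finger repressor induced by many stresses, had 9.15, 9.35 and 10.1 CPM in WT at 29 °C, against 77.1, 78.9 and 83.9 CPM in *vim1-3* (log2 fold change −3.06, standard error 0.08, adjusted p = 4.68e-11). Its relative *ZAT12* was also lower (−1.6), and *KIN2*, a small protein of cold and ABA responses, was higher (1.45). *ZAT10* stood at 8.25, 7.56 and 9.51 CPM in OE *APOLO-1*, near WT at 29 °C, and at 32.5, 91.1 and 104 CPM in WT at 23 °C. Of 29 tested jasmonate genes 5 were higher (17.2%) and 8 lower (27.6%). The synthesis genes split, with 3 of 13 higher and 5 lower. *AOS* (1.42) and *LOX2* (1.98) were higher in WT at 29 °C, whereas *LOX4*, *AOC1*, *OPCL1* and *ACX1* were among the lower ones. The storage protein gene *VSP1* was higher (1.66) and the repressor gene *JAZ1* lower (−0.75). The fit of all 12 libraries called none of the jasmonate genes lower and did not call *LOX2* (adjusted p = 0.107). In the flavonoid and anthocyanin pathway 4 of 14 were lower and none higher, led by the repressor gene *MYBL2* (−0.71) and by *PAL1* (−0.81), which opens phenylpropanoid synthesis. Of these 4, 2 were called in the fit of all 12 libraries, *PAL1* not among them (adjusted p = 0.0991).

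In the photosynthetic genes differences were small. Of 46 tested antenna, photosystem and Rubisco genes 13 were higher (28.3%) and 4 lower, with a median log2 fold change of 0.11. *CAB3* had 8161, 8491 and 8018 CPM in WT at 29 °C, against 5372, 5236 and 4981 CPM in *vim1-3* (log2 fold change 0.66, standard error 0.06, adjusted p = 3.29e-06), and *LHCB4.2* was higher (0.72), while the Rubisco gene *RBCS1A* was lower (−0.36). Leaving out *vim1-3* replicate C left 8 higher genes, and the fit of all 12 libraries 4. Of 20 tested chlorophyll synthesis genes 6 were higher and 1 lower, first among them the protochlorophyllide reductase gene *PORB*, with 657, 652 and 646 CPM in WT at 29 °C, against 384, 338 and 333 CPM in *vim1-3* (log2 fold change 0.89, standard error 0.07, adjusted p = 7.45e-07). The genes encoded in the plastid itself varied widely between libraries of a group: they summed to 1178 to 4358 CPM in WT at 29 °C and to 1379 to 14420 CPM in *vim1-3*, where replicate B stood far above the others, and 3 of 79 were lower, with a median log2 fold change of −0.61. None of the 3 was called in the fit of all 12 libraries. Pseudogenes, the nearest class in the annotation to silenced sequence, had 16 higher and 8 lower among 100 tested. The files hold 3903 pseudogenes, and 3465 of them had no read in the 6 libraries. The higher share of the tested pseudogenes (16%) was near the background of 14.2%. Without single libraries 7 to 17 were higher, and the background moved as well, with 1871 to 3256 higher genes over all genes tested. Of the methylation-silenced genes *QQS*, *SDC* and *FWA* only 1 was tested, and it was not called. Sequence with few or no reads could not be assessed.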

How the data were processed

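Libraries were made from total RNA of whole seedlings with a TruSeq kit, which the study's methods name as stranded and the labels do not, and sequenced in reads of 75 bases. The authors trimmed reads with Trimmomatic 0.36, removed ribosomal reads with SortMeRNA, aligned to TAIR10 with STAR 2.5.2b and counted with featureCounts (Subread 1.6.5; Araport11), and deposited raw counts per gene; tools and versions come from the submitters' processing notes and the study's methods. The strand setting of the counting is not given in the sources used here. Totals were 12611895 to 22925019 counts in the 6 libraries and 8824476 to 22925019 in all 12.

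Groups came from the labels. Genes passing filterByExpr (20235) were fitted in the 6 libraries with edgeR 4.0.16 (glmQLFit robust, glmQLFTest; R 4.3.3), with TMM factors computed over all 12 libraries, Benjamini-Hochberg adjustment over all genes tested and a threshold of 0.01. The study used DESeq2 at this threshold; it was run here as an alternative (DESeq2 1.42.0). Alternatives were other factors (TMM of the 6 libraries, RLE, upper quartile), a fit of all 12 libraries, other filters, a replicate block, each library left out, an adjusted p below 0.05 and differences of at least 2-fold. The fit was tested on simulated counts. Named genes are the 12 highest and 12 lowest by the difference in log2(mean CPM + 1) among called genes with a group mean of at least 10 CPM and separate groups, the genes the study names, and up to 4 called members per list and direction, with others chosen after their values were seen. Members and lists were chosen with earlier results of these data known.

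Symbols and coordinates come from RefSeq TAIR10.1 (37051 of 37336 genes matched). Promoter windows of 200 bases and 75-base exon stretches were read from that genome; the W-box search was added after values were seen. The exact intervals cover counting error only. The p-values cover counting error and the spread between these libraries. The study describes independent biological replicates.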

Additional observations from a re-analysis of the deposited data

How the results depend on the processing

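Scaling changed the number of calls little, and the median log2 fold change moved to at most 0.035 (upper-quartile factors). The balance of directions did depend on it. With upper-quartile factors 3239 genes were higher and 2868 lower, so 53% of calls were higher, against 47.5% in the main fit (2866 higher and 3165 lower). The fit of all 12 libraries called 2816 genes (1394 higher and 1422 lower), DESeq2 on all 12 libraries 3791 (1764 and 2027), and a minimum of 2-fold left 1532 (645 and 887). Other settings stayed within 1.5 times of 6031 calls, with 5438 from DESeq2 on the 6 libraries. Leaving out single libraries gave 4176 to 6846 calls, 1871 to 3256 higher and 2305 to 3590 lower. Same-letter libraries did not deviate together (r of −0.122, −0.253 and −0.063), and a fit with the replicate letter as a block called 4973 genes; no library correlated best with its own letter, and nothing was paired. Of 162 named genes tested, 106 kept direction and call under every alternative run. Only *PP2AA3* changed sign, to −0.01 without WT 29 °C replicate C, within a range of −0.01 to 0.07 over the fits without single libraries, and it was called in none of them. With 3 libraries a group, genes of few reads are limited by depth, as *VIM5* and *APOLO* were not tested.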
